A study of Homo sapiens with 4 samples.

Results

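The 10 genes described here are transcriptional readouts of ERK signalling: the phosphatase genes DUSP4, DUSP5 and DUSP6, the sprouty genes SPRY1, SPRY2 and SPRY4, the sprouty-related genes SPRED1 and SPRED2, and the transcription factor genes ETV4 and ETV5. They were measured in HCC1954, an epithelial human breast cancer line in long use, in which the gene of the receptor HER2 is amplified. They were chosen by name, with earlier results of these data known. Each matched 1 of the 58735 genes in the count table, and all 10 were among the 15817 genes with enough counts to be tested. Total RNA was sequenced from 2 samples of cells with a scrambled control hairpin in the GIPZ vector (shCON) and 2 samples with a hairpin against the palmitoyltransferase gene ZDHHC15 (shZDHHC15). The comparison asks how the transcripts of these genes differed when ZDHHC15 was depleted. The sample labels call the knockdown stable and also describe Lipofectamine transfection with harvest after 36 h, the study's supplement mentions screening of monoclonal cultures, and no source says whether samples 1 and 2 were separate cultures, clones or hairpins. The adjusted p-values therefore measure only the spread between these samples, which may be technical.

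ERK is the last kinase of the cascade that runs from receptor tyrosine kinases through Ras, RAF and MEK. Once active, it drives transcription of genes whose products restrain the same cascade, so that a signal limits itself. The DUSP proteins remove the activating phosphates from ERK, and sprouty proteins act between the receptor and RAF. SPRED proteins bring the Ras inhibitor neurofibromin to the membrane. ETV4 and ETV5 are not such inhibitors but ETS transcription factors of the PEA3 group, whose genes also respond to ERK. Levels of these transcripts are widely used as a readout of ERK activity in breast and other cancers, but the transcripts are not a measurement of ERK itself.

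Of the 10 genes, 5 were lower in shZDHHC15 cells, 2 were higher, and 3 did not pass the test. All 3 DUSP genes fell, by 1.47-fold to 1.95-fold, and ETV4 fell by 1.45-fold. The sprouty genes were split, with SPRY2 lower by 1.44-fold and SPRY4 and SPRY1 higher by 1.64-fold and 3.00-fold. SPRED1, SPRED2 and ETV5 did not pass the test. A gene was called where the quasi-likelihood test of edgeR gave an adjusted p under 0.05, by the Benjamini-Hochberg method over all tested genes. Calls were common in this comparison, with 42.0% of all tested genes called, 20.3% lower and 21.7% higher. The 5 lower genes made up a larger share of the 10 than lower genes did of all genes, and the 2 higher genes a similar one. As the 10 genes were chosen with earlier results known, these shares are a description only. The median log2 fold change of the 10 genes was -0.33, against 0.02 for all tested genes, and it was -0.21 without shZDHHC15 replicate 1. The groups did not overlap in 8 of the 10 genes, which is also the case for 72.5% of all tested genes.

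**Figure D1:**
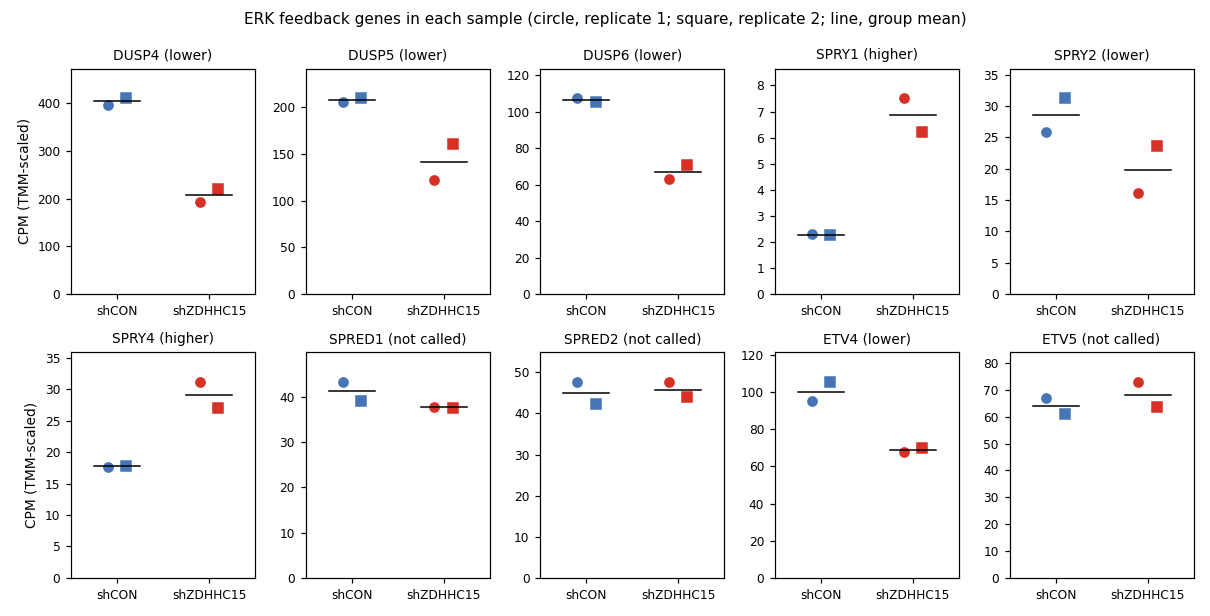
Level of each of the 10 genes in CPM after TMM scaling (vertical axis from 0) in the shCON and shZDHHC15 samples, with circles for replicate 1, squares for replicate 2 and a line at the mean of each group. Both shZDHHC15 samples lie below both shCON samples for the DUSP genes, SPRY2, SPRED1 and ETV4 and above them for SPRY1 and SPRY4, and the groups overlap for SPRED2 and ETV5.

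The samples held 17560982 to 19118704 counts. ZDHHC15 itself received 17617 and 15716 counts in shCON and 0 counts in each shZDHHC15 sample. The sources describe a knockdown, and why no counts at all remained was not tested. The 10 markers of epithelial cells and of the amplified HER2 region checked were all detected. Levels are given in CPM (counts of a gene per 1e6 counts of the tested genes, with libraries scaled by edgeR's TMM factors). The markers summed to 27640 and 30356 CPM in shCON and 15046 and 16104 in shZDHHC15. Of the 10, 8 were called lower, against 20.3% of all tested genes. The log2 fold changes of these 8 ran from -0.24 for ERBB2 to -1.62 for KRT8. KRT19 was called higher (0.44), and CDH1 was not called (-0.05). The 15 leukocyte markers summed to 11.2 and 13.2 CPM in shCON and 7.25 and 7.85 in shZDHHC15. Of these, 5 were at 0 in all samples, among them the T cell markers CD3D, CD3E and CD2. PTPRC, the pan-leukocyte marker, received 1 to 4 counts, and 3 of the markers were tested. CSF1R, with the highest counts of the list (153 and 177 in shCON, 68 and 105 in shZDHHC15), and CD8A were called lower, with log2 fold changes of -1.06 and -1.29, and CD14 was called higher, with 1.61. The 12 fibroblast and endothelial markers summed to 63.1 and 64.6 CPM in shCON and 119 and 110 in shZDHHC15. LUM was at 0 in all samples, COL1A2, COL3A1, PDGFRA, PDGFRB, DCN and THY1 received at most 5 counts and VWF at most 7, and 4 were tested. CDH5, which had the highest counts of the list, was called higher (807 and 780 counts in shCON, 1224 and 1487 in shZDHHC15), as were PECAM1 (75 and 56, then 666 and 405) and COL1A1 (100 and 120, then 214 and 161), and KDR was called lower (159 and 121, then 108 and 87). Interferon-stimulated genes moved with the same groups, since 15 of 16 were called higher, against 21.7% of all tested genes. Their sum was 858.5 and 920.0 CPM in shCON against 7714.5 and 6345.6 in shZDHHC15. The part of these marker and interferon differences in the results below was not tested. In bulk RNA, fewer cells that express a gene and less of its RNA per cell cannot be told apart.

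DUSP5 and DUSP4 were the most abundant of the 10 genes per length, and the 3 phosphatase genes were all lower in shZDHHC15. DUSP4 (ENSG00000120875, chromosome 8, 29333064 to 29350668 on GRCh38), a nuclear phosphatase of ERK and related kinases, received 7242 and 6935 counts in shCON and 3588 and 4342 counts in shZDHHC15. These counts correspond to 397 and 411 CPM in shCON and 193 and 221 CPM in shZDHHC15. Both shZDHHC15 samples thus lay far below both shCON samples, and the log2 fold change was -0.97 (standard error, SE, 0.0948, adjusted p = 1.71e-06). It was the largest fall among the 10 genes. DUSP5 (ENSG00000138166, chromosome 10, 110497838 to 110511544), a nuclear phosphatase that acts on ERK, received 3742 and 3541 counts in shCON and 2279 and 3145 counts in shZDHHC15. Its level was 205 and 210 CPM in shCON and 122 and 160 CPM in shZDHHC15, without overlap, and the shZDHHC15 samples stood further apart from each other than the shCON samples. The log2 fold change was -0.55 (SE 0.114, adjusted p = 0.00132), and it ranged from -0.76 without shZDHHC15 replicate 2 to -0.37 without shZDHHC15 replicate 1.

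DUSP6 (ENSG00000139318, chromosome 12, 89347232 to 89353271), the cytoplasmic phosphatase specific for ERK, received 1961 and 1777 counts in shCON and 1173 and 1392 counts in shZDHHC15. At 108 and 105 CPM in shCON against 63.0 and 70.9 CPM in shZDHHC15, its groups did not overlap. The log2 fold change was -0.67 (SE 0.101, adjusted p = 0.000105). An antisense gene, AC024909.2, overlaps 1875 bases of its exons and received only 24 to 28 counts in any sample. No setting of the strand is given for the counting, so reads of the overlapping strands cannot be told apart.

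To set the genes against each other, counts were divided by gene length and expressed as TPM, in which all genes of a sample sum to the same total. On that scale DUSP5 led in both groups, with 268 ± 6.14 TPM in shCON (SD, n = 2) and 197 ± 37.1 TPM in shZDHHC15, followed by DUSP4, ETV4, DUSP6 and ETV5 in the same order in both. SPRY2 and SPRED2 came next and changed places, from 31.8 ± 2.98 and 29.6 ± 3.65 TPM in shCON, where their samples overlapped, to 23.8 ± 6.27 and 32.4 ± 1.84 TPM in shZDHHC15. SPRED1, SPRY4 and SPRY1 were the lowest in both groups. In shCON, SPRED1 (16.9 ± 1.89 TPM) stood above SPRY4 (9.15 ± 0.309 TPM), and in shZDHHC15 these genes could not be separated beyond the spread between samples (16.6 ± 0.0968 and 16.2 ± 1.64 TPM). Every other pair of neighbours in these orders was separated in its samples. The summed level of DUSP4, DUSP5 and DUSP6 was 543 and 525 TPM in shCON and 317 and 390 TPM in shZDHHC15. DUSP5 took 50.2% ± 0.0778 of that sum in shCON (SD, n = 2) and 55.5% ± 2.41 in shZDHHC15, while DUSP4 took 35.2% ± 0.346 and 29.5% ± 1.46.

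**Figure D2:**
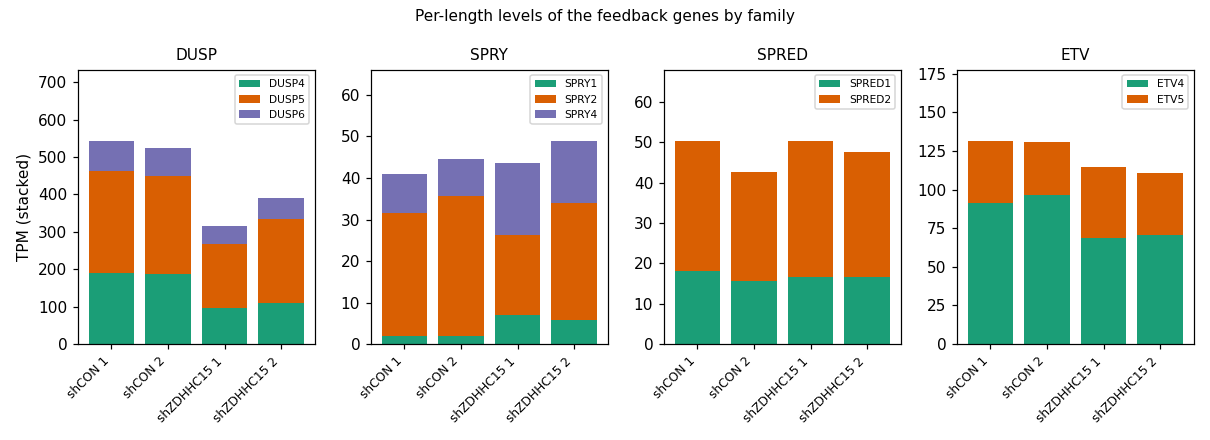
Stacked per-length levels (TPM, vertical axis from 0, a separate scale for each panel) of the DUSP, SPRY, SPRED and ETV genes in each of the 4 samples. The DUSP sum drops from 543 and 525 TPM in shCON to 317 and 390 TPM in shZDHHC15, while the SPRY sum stays between 41.05 and 49.0 TPM and SPRY1 and SPRY4 take a larger part of it in shZDHHC15.

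The sprouty genes did not move as a group. SPRY2 (ENSG00000136158, chromosome 13, 80335976 to 80340951), the most abundant of them, received 473 and 528 counts in shCON and 301 and 463 counts in shZDHHC15. This is 25.9 and 31.3 CPM in shCON and 16.2 and 23.6 CPM in shZDHHC15, so that the groups did not overlap but the higher shZDHHC15 sample lay close to the lower shCON sample. Its log2 fold change was -0.52 (SE 0.164, adjusted p = 0.0193). The call rested on 1 sample, since without shZDHHC15 replicate 1 the log2 fold change was -0.28 with an adjusted p of 0.253, and the call was also lost with library size as the only scaling (adjusted p = 0.0503) and when rarely counted genes were not filtered out (adjusted p = 0.121). SPRY2 binds the ubiquitin ligase CBL and is known as an inhibitor of growth factor signalling.

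SPRY4 (ENSG00000187678, chromosome 5, 142310427 to 142326455) went the opposite way, with 323 and 301 counts in shCON and 581 and 531 counts in shZDHHC15. Its level was 17.7 and 17.8 CPM in shCON and 31.2 and 27.1 CPM in shZDHHC15. Both shZDHHC15 samples were above both shCON samples, with a log2 fold change of 0.71 (SE 0.131, adjusted p = 0.000544). SPRY1 (ENSG00000164056, chromosome 4, 123396795 to 123403760) was the rarest of the 10 genes, with 42 and 38 counts in shCON and 140 and 122 counts in shZDHHC15. At 2.30 and 2.25 CPM against 7.52 and 6.22 CPM it was also the gene with the largest change, a log2 fold change of 1.59 (SE 0.241, adjusted p = 0.000107). Its 95% interval, from 1.07 to 2.10, was the widest of the 10 genes. SPRY4 and SPRY1 remained called in all 12 alternative analyses.

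The summed level of these genes overlapped between groups, at 41.05 and 44.7 TPM in shCON and 43.6 and 49.0 TPM in shZDHHC15. Their proportions differed without overlap. SPRY2 made up 72.25% and 75.8% of the sum in the shCON samples and 44.4% and 57.7% in the shZDHHC15 samples. SPRY4 made up 21.4% ± 2.00 of the sum in shCON and 35.2% ± 6.41 in shZDHHC15 (SD, n = 2), and SPRY1 4.55% ± 0.520 and 13.8% ± 2.96. An exact two-sided permutation of 2 samples against 2 cannot give a p below 0.333, so these proportions are given without a test.

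The stretches before the start sites of the sprouty genes are printed because these paralogs moved in opposite directions. They come from the RefSeq promoter table of GRCh38.p14, which held 6 of the 10 genes, as the 250 bases before the RefSeq start (175 bases upstream of the outermost GENCODE start for SPRY2 and 2208 bases downstream of it for SPRY4), 5′ to 3′ on the strand of the gene and without bases that a GENCODE exon covers. SPRY1 lies at chr4:123396545-123396794 on the plus strand, SPRY2 at chr13:80341127-80341376 on the minus strand, and SPRY4, of which 80 bases remained, at chr5:142324418-142324497 on the minus strand. Capitals mark matches to CCGGAA, the core of an ETS factor site, and to TGACG, the core of the cyclic AMP response element, on either strand.
SPRY1: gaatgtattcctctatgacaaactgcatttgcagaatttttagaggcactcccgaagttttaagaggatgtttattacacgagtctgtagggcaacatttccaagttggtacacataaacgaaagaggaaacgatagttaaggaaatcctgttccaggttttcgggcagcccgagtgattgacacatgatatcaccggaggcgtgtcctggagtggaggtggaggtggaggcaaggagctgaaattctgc
SPRY2: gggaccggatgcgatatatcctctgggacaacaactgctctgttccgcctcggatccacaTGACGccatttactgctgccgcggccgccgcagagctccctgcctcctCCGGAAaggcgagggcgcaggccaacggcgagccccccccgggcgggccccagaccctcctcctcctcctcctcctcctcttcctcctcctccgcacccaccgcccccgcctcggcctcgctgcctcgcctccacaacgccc
SPRY4: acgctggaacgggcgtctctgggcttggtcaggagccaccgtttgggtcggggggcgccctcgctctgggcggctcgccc
CCGGAA was found 142 bases before the start of SPRY2 and in no other of the 6 windows, against 14.5% of the 35116 promoter windows of this length. TGACG was found 190 bases before the start of SPRY2 and 68 bases before that of SPRY4, in the exon-covered part that is not printed, against 21.2% of all windows. TGACTCA (AP-1), TGAATGAA (the repressor CIC), CATTCC (TEAD) and the core of the interferon-stimulated response element occurred in none of the 6 windows and in 4.2%, 1.4%, 11.9% and 3.02% of all windows. These matches describe letters in short windows and are not evidence of binding. The windows of DUSP6 and SPRED1 end at RefSeq starts 770 and 510 bases downstream of the outermost GENCODE start. Like that of SPRY4, they lie inside the annotated gene and do not cover the stretch before its outermost start. No matches overlapped each other.

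SPRED1 and SPRED2, which restrain Ras together with neurofibromin, did not pass the test. SPRED1 (ENSG00000166068, chromosome 15, 38252326 to 38357249) received 789 and 658 counts in shCON and 703 and 736 counts in shZDHHC15, or 43.3 and 39.0 against 37.8 and 37.5 CPM. The groups did not overlap, but lay close together (log2 fold change -0.13, 95% interval -0.37 to 0.11, adjusted p = 0.379). SPRED2 (ENSG00000198369, chromosome 2, 65310851 to 65432637) had 870 and 714 counts in shCON and 887 and 864 counts in shZDHHC15, or 47.7 and 42.3 against 47.6 and 44.0 CPM. Here the groups overlapped, with a log2 fold change of 0.02 (95% interval -0.22 to 0.26, adjusted p = 0.885). These intervals leave room for differences of up to about 0.37 and 0.26 on the log2 scale.

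The ETS factors also parted. ETV4 (ENSG00000175832, chromosome 17, 43527844 to 43579620), an activator linked to invasion in breast cancer, received 1734 and 1782 counts in shCON and 1263 and 1377 counts in shZDHHC15. Its level of 95.1 and 106 CPM in shCON was above the 67.8 and 70.2 CPM of shZDHHC15 in every sample, with a log2 fold change of -0.54 (SE 0.101, adjusted p = 0.000605). DHX8, on the opposite strand, shares 68 exonic bases with ETV4 and received 1212 to 1753 counts, lower in shCON than in shZDHHC15. ETV5 (ENSG00000244405, chromosome 3, 186046308 to 186110318), its close paralog, received 1220 and 1030 counts in shCON and 1360 and 1247 counts in shZDHHC15. Its 66.9 and 61.1 CPM overlapped with 73.0 and 63.5 CPM, and the log2 fold change was 0.09 (95% interval -0.14 to 0.32, adjusted p = 0.526). ETV4 made up 71.6% ± 2.83 of the TPM of this pair in shCON (SD, n = 2) and 61.9% ± 2.88 in shZDHHC15.

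The shZDHHC15 samples were not equally far from shCON. In all 7 called genes, replicate 2 of shZDHHC15 was closer to the shCON mean than replicate 1, also for the genes that rose. It was 30.9% above replicate 1 for DUSP5 and 45.9% above it for SPRY2, and 17.3% and 13.3% below it for SPRY1 and SPRY4. Replicate 2 was the closer sample for 70.3% of all genes called. Targeted counts do not separate the samples, since ZDHHC15 was at 0 counts in both.

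Leaving out 1 sample or changing the scaling, filter or test kept the direction and the call of DUSP4, DUSP5, DUSP6, SPRY1, SPRY4 and ETV4 in all 12 alternatives. SPRY2 kept its direction in all 12 and its call in 9.

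**Figure D3:**
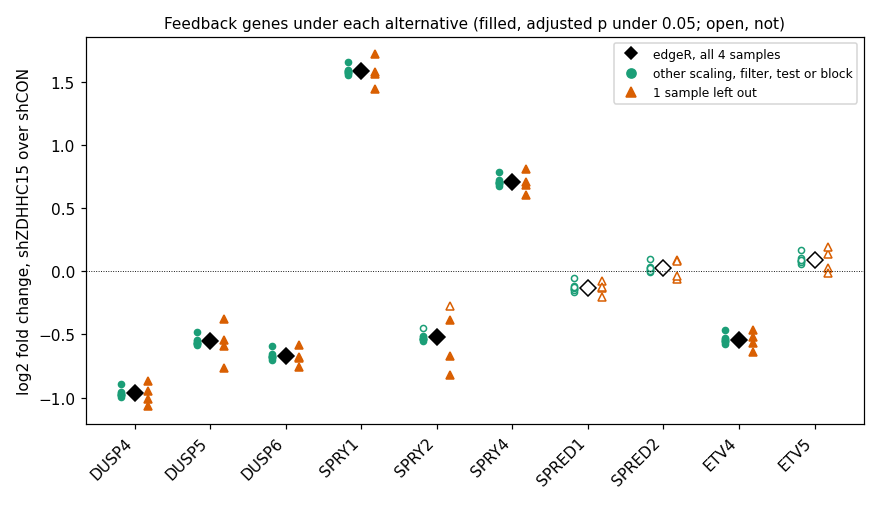
Log2 fold change (shZDHHC15 over shCON, vertical axis) of each of the 10 genes in the edgeR analysis of all 4 samples (diamonds), in 8 analyses with another scaling, filter, test or a replicate block (circles), and in 4 analyses without 1 sample (triangles), filled where the adjusted p was under 0.05. SPRY2 has open symbols at -0.45, -0.54 and -0.28, and SPRED1, SPRED2 and ETV5 are open throughout.

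A list of 10 relatives, namely other MAP kinase phosphatases, the remaining sprouty and SPRED genes and ETV1, was examined in the same way. Of these, 4 were lower, 2 were higher and 4 did not pass the test, against 20.3% of all tested genes lower and 21.7% higher. The median log2 fold change of the relatives was -0.42, and it was -0.27 without shZDHHC15 replicate 1. DUSP1, an early response phosphatase that prefers stress-activated kinases, fell from 126 ± 5.93 to 54.7 ± 8.72 CPM (SD, n = 2), and its log2 fold change was -1.21 (adjusted p = 1.22e-06), which was a larger fall than that of any of the 10 feedback genes. DUSP10, a phosphatase of JNK and p38 kinases, fell by 0.77 on the log2 scale (adjusted p = 1.06e-05) from 211 ± 2.10 to 124 ± 2.25 CPM (SD, n = 2). DUSP9 and DUSP8 had log2 fold changes of -0.65 (adjusted p = 0.00514) and -0.51 (adjusted p = 0.00350), and both calls were lost without shZDHHC15 replicate 1 (adjusted p = 0.0515 and 0.0666), which left 2 lower genes. DUSP16, another phosphatase of JNK, rose by 0.63 (adjusted p = 0.00128).

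Among the other sprouty and ETS relatives, SPRY3 rose from 42 and 25 to 92 and 82 counts, a log2 fold change of 1.25 (adjusted p = 0.00248). Thus 3 of the 4 sprouty genes were higher and SPRY2 alone was lower. DUSP2, DUSP7, SPRED3 and ETV1 did not pass the test, with log2 fold changes of -0.42, 0.06, -0.41 and 0.25. For DUSP2 this depended on shZDHHC15 replicate 2, without which the value was -0.77 (adjusted p = 0.0333). Leaving out 1 sample at a time moved DUSP7 to between -0.15 and 0.25 and ETV1 to between -0.07 and 0.66, so that neither had a stable sign. The lowest counts were those of SPRED3, with 24 to 30 in each sample, and its 95% interval ran from -1.15 to 0.32.

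**Figure D4:**
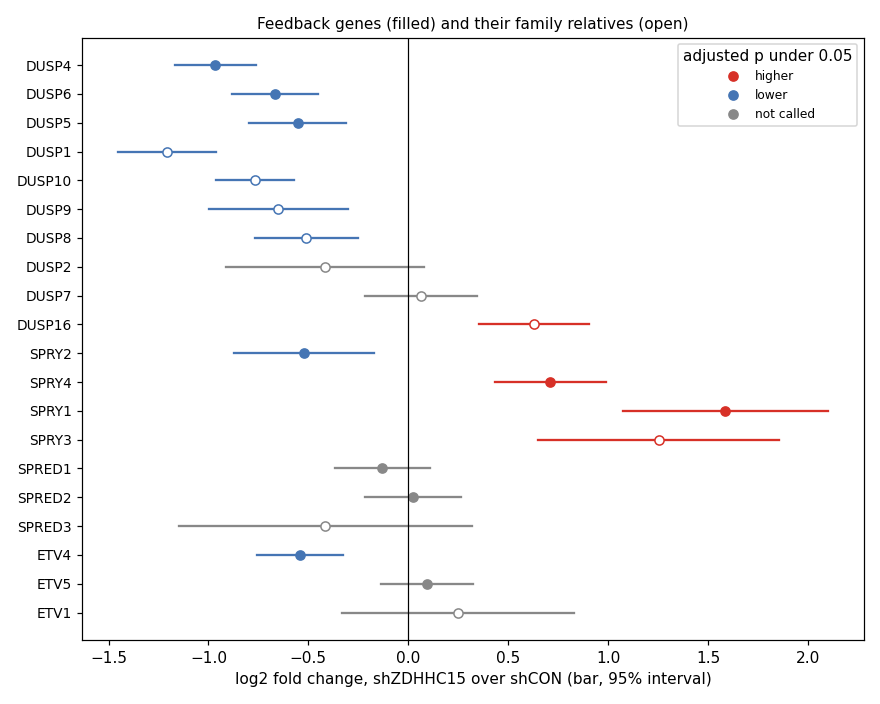
Log2 fold change (shZDHHC15 over shCON, horizontal axis) with 95% intervals for the 10 feedback genes (filled) and 10 relatives (open), ordered by family and coloured by call. Of the 10 DUSP genes shown, 7 are lower and 1 is higher, whereas 3 of the 4 SPRY genes are higher and no SPRED gene passes the test.

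Other genes known to respond to ERK were taken from a list of 20, of which 19 were tested, with a median log2 fold change of -0.33. Among the 19, 10 (52.6%) were lower and 3 (15.8%) were higher, against 20.3% and 21.7% of all tested genes. CCND1, which encodes cyclin D1, fell from 3173 ± 34.4 to 1288 ± 146 CPM (SD, n = 2), and its log2 fold change was -1.30 (adjusted p = 6.59e-08), and LTO1, with 2417 to 3279 counts, overlaps 497 bases of its exons on the opposite strand. FOSL1, which encodes a subunit of AP-1, had a log2 fold change of -1.20 (adjusted p = 9.56e-06), from 314 ± 16.2 to 137 ± 38.4 CPM (SD, n = 2). ERRFI1, a feedback inhibitor of EGFR and its relatives, had a log2 fold change of -1.10 (adjusted p = 3.50e-07). IER3, an early response gene, had a log2 fold change of -1.09 (adjusted p = 5.69e-07). The 3 higher genes were TRIB2, a pseudokinase (log2 fold change 1.57, adjusted p = 6.59e-08), KANK1, a cytoskeletal adaptor (1.02, adjusted p = 7.71e-05), and EGR1, an early response transcription factor (0.35, adjusted p = 0.00834). EGR1 was no longer called without shZDHHC15 replicate 2 (adjusted p = 0.103).

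The cascade itself was described by 31 genes of adaptors, Ras proteins, their regulators, kinases and scaffolds. Of these, 6 were higher, 8 lower and 17 did not pass the test, against 42.0% of all tested genes called. Without shZDHHC15 replicate 1, 3 were lower, and under the same setting the lower genes among all tested went from 3217 to 2201. The median log2 fold change was 0.07, which ranged over the 12 alternatives from 0.000763 without shCON replicate 2 to 0.15 with library size as the only scaling, and was 0.03 without shCON replicate 1 and 0.02 without shZDHHC15 replicate 1. NRAS fell from 78.4 ± 5.89 to 42.5 ± 1.07 CPM (SD, n = 2), and its log2 fold change was -0.88 (adjusted p = 1.27e-05), and HRAS fell by 0.76 (adjusted p = 7.09e-05). PEBP1, which encodes the RAF kinase inhibitor protein, had a log2 fold change of -0.46 (adjusted p = 0.00114). MRAS was barely called (-0.48, adjusted p = 0.0457), and that call was lost in 7 of the 12 alternatives, with adjusted p-values up to 0.261. The higher genes included the ribosomal S6 kinases of ERK, RPS6KA2 (1.36, adjusted p = 1.80e-06) and RPS6KA3 (1.04, adjusted p = 2.52e-06), the scaffold KSR1 (1.10, adjusted p = 6.28e-05) and NF1 (0.84, adjusted p = 0.000177), which encodes the neurofibromin that SPRED proteins recruit.

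A list of 11 genes held CBL, the ubiquitin ligase that SPRY2 binds. The rest were transcription factors and partners through which ERK is known to reach the feedback genes. Of the 11, 3 (27.3%) were higher and 5 (45.5%) lower, against 21.7% and 20.3% of all tested genes. The median log2 fold change was 0.01, and its sign differed under 6 of the 12 alternatives. ETS1, a founding ETS factor, fell by 0.82 (adjusted p = 7.42e-05), SRF, the serum response factor, by 0.72 (adjusted p = 8.65e-05), ETS2 by 0.68 (adjusted p = 4.32e-05) and ELK1, a direct ERK substrate, by 0.43 (adjusted p = 0.00418). CIC, the repressor that ERK relieves at ETV4, ETV5, DUSP6 and SPRY4, rose from 65.7 ± 0.338 to 111 ± 8.35 CPM (SD, n = 2), and its log2 fold change was 0.75 (adjusted p = 3.44e-05). ETV3, an ETS repressor, rose by 0.84 (adjusted p = 1.62e-05). CBL, the partner of SPRY2, rose by 0.33 (adjusted p = 0.0334), a call that was lost without shZDHHC15 replicate 1 (0.20, adjusted p = 0.364) or shCON replicate 2 (0.25, adjusted p = 0.0944) and under 2 other alternatives. MCAM, on the opposite strand, shares 509 exonic bases with CBL (194 to 315 counts), VSIG10 shares 169 with PEBP1 (202 to 276 counts), and ETV3 and NF1 each hold a near-identical stretch of ETV3L or NF1P11, so that their counts are less certain.

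**Figure D5:**
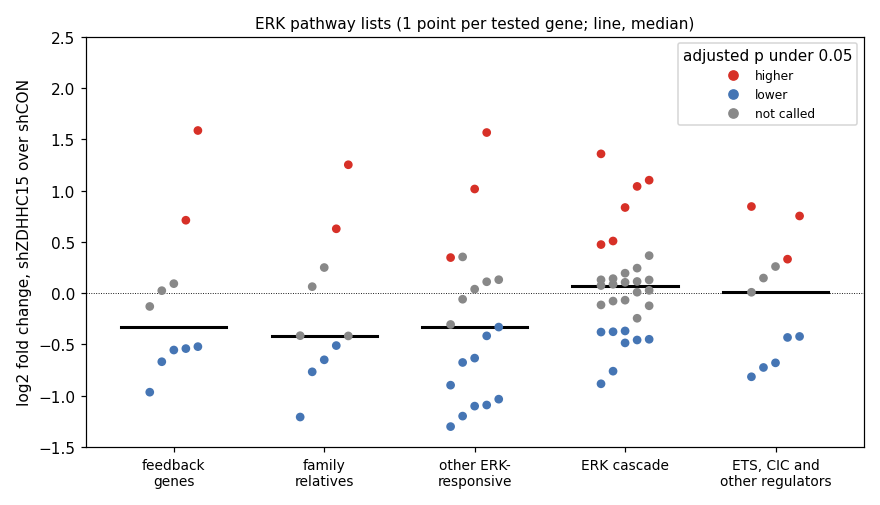
Log2 fold change (shZDHHC15 over shCON, vertical axis) of each tested gene, coloured by call, with a line at the median. The lists are the feedback genes, their relatives, other ERK-responsive genes, the ERK cascade, and transcription factors and partners with CBL. The medians are -0.33, -0.42, -0.33, 0.07 and 0.01 in that order.

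Of 12956 other protein-coding genes, those whose centred log2 CPM over the 4 samples lay nearest to DUSP5, the most abundant of the 10 genes per length, were IMMP1L, a mitochondrial peptidase gene (root-mean-square distance 0.00891 on the log2 scale), ADGRG2 (0.0232) and TRMT1 (0.0261). TRMT1 had 1587 and 1548 counts in shCON and 996 and 1320 counts in shZDHHC15. With 4 samples such likeness is a description only.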

How the data were processed

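The authors deposited 1 table of raw read counts per gene for 4 samples of HCC1954 cells, without normalization, with gene positions and lengths. The submitters' processing notes name HISAT2, StringTie, SAMtools and the build hg38, without versions or roles. The counting tool and strand setting are not given in the sources used here. All 58735 genes matched GENCODE release 29 (GRCh38) in identifier, start and end. No per-sample column was left out.

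The 10 genes and all gene lists were chosen with earlier results of these data known. Genes were filtered with filterByExpr and tested with edgeR 4.0.16 (R 4.3.3) using TMM factors, glmQLFit (legacy = FALSE) and glmQLFTest. P-values were adjusted over 15817 genes by Benjamini-Hochberg, with a threshold of 0.05. The study's methods name no test for RNA-seq. CPM are counts over the tested genes' TMM-scaled total, and TPM use the file's gene lengths. SEs were derived from each log2 fold change and its F value, and 95% intervals from the test's degrees of freedom. Depth was 17560982 to 19118704 counts, and the floor for a count of 0 is 3 counts (0.153 to 0.178 CPM), which covers counting error only. The samples of a group differed by more than sampling noise (chi-square per degree of freedom 8.32 for shCON and 6.79 for shZDHHC15 over genes with at least 20 counts summed in the group).

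Named genes were all 10 feedback genes, their family relatives, and up to 4 higher and 4 lower called genes with the largest change in each other list. Transcript overlaps were read from GENCODE and near-identical stretches searched with blastn 2.17.0. No feedback gene had one of at least 150 bases at 97% identity. Alternatives were scaling by library size alone, by the size factors of DESeq2 or by upper quartiles, the Wald test of DESeq2 1.42.0, no filter, a minimum of 10 counts per sample, edgeR's legacy quasi-dispersion, a replicate block, and leaving out each sample, where the lone sample of a group is assumed to vary like the others. The fits were also run on simulated counts. Far fewer genes changed there than were called here, so that run gives no error rates for these data.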

Additional observations from a re-analysis of the deposited data

How the results depend on the processing

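Both higher genes among the 10 feedback genes, SPRY1 and SPRY4, were called in each of the 12 alternatives, and 4 or 5 genes were lower in each. With no filter on low counts, 2282 genes were higher over all genes in place of 3427. Without 1 sample at a time, between 2 and 5 family relatives and between 3 and 8 cascade genes were lower. Library size as the only scaling moved the median of all genes to 0.09 and the median of the 10 genes to -0.25, and leaving out shZDHHC15 replicate 1 moved the latter to -0.21. Deviations from the group means correlated at 0.082 across genes between samples with the same replicate number. With 2 samples in each group both pairs must give the same value, so it cannot show whether replicate numbers pair the samples. With the replicate block 3723 genes were higher and 3502 lower, against 3427 and 3217 without it. Among the 10 feedback genes, 2 were higher and 5 lower with the block. With 2 samples in each group, the intervals of SPRED1, SPRED2 and ETV5 do not exclude small differences.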
